A study of Arabidopsis thaliana with 6 samples.

Results

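The genes described here are the enzymes, transport genes and regulators of flavonoid and anthocyanin synthesis in *Arabidopsis thaliana*, taken as a list of 36 locus codes. All 36 were in the deposited table of 33602 loci, and 30 of them were among the 20296 genes with enough reads to be tested. Poly(A) RNA was sequenced from the lowest 1 cm of inflorescence stems, 15 to 20 cm tall, of plants carrying either the *smxl4 smxl5* double mutation, a genotype labelled phloem-defective, or wild type. Both groups had been grafted onto wild-type roots, and each genotype had 3 libraries, each pooling 3 stem fragments. The labels name no allele, ecotype or plant age. A fragment of whole stem holds epidermis, cortex, vascular tissue and pith together, so fewer cells of a type and less RNA per cell cannot be told apart.

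Flavonoids are built from coumaroyl-CoA, the product of general phenylpropanoid metabolism, by chalcone synthase (*CHS*), chalcone isomerase (*CHI*), flavanone 3-hydroxylase (*F3H*) and flavonoid 3'-hydroxylase (*F3'H*). At the dihydroflavonols the pathway divides. Flavonol synthase leads to flavonols, which are colourless and absorb ultraviolet light, while dihydroflavonol reductase (*DFR*) and leucoanthocyanidin dioxygenase (*LDOX*) lead to the red and purple anthocyanins. In Arabidopsis the flavonol regulators *MYB11*, *MYB12* and *MYB111* act mainly on the early genes. Complexes of an R2R3-MYB protein, a bHLH protein and the WD40 protein TTG1 act mainly on the late genes, and stems and leaves colour when light, sugar or nutrient shortage raises anthocyanin synthesis.

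Library totals ran from 21364628 to 49929595 counts, the lowest being *smxl4 smxl5* replicate 2. *SMXL4* was at 13.4, 15.3 and 11.2 CPM, the read count scaled to a common library size, in *smxl4 smxl5* replicates 1, 2 and 3 and at 12.1, 10.2 and 11.1 CPM in wild type replicates 1, 2 and 3. *SMXL5* was at 116, 116 and 82.0 CPM against 112, 97.5 and 99.4 CPM. Neither gene separated the groups, so a count over the whole gene does not check the genotype labels, and every direction below is that of the libraries labelled *smxl4 smxl5* relative to those labelled wild type. Values of single libraries are given in replicate order, *smxl4 smxl5* first.

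Among the 30 members tested, 8 rose and 4 fell in *smxl4 smxl5* at an adjusted p of 0.05 in edgeR's quasi-likelihood test. Over all genes tested, 11.2% were called higher and 13.7% lower, 24.9% in all. The members were chosen with earlier results of these data known, so these shares are set beside them as description and not as a test. The risers were *CHS*, *F3'H*, *DFR*, the regulators *MYB113*, *MYB114* and *TT8*, and the repressor genes *LBD38* and *LBD39*. *FLS1*, *PAP1*, *HY5* and *MYBL2* fell. The median log2 fold change of the members tested was 0.34, where that of all genes tested was 0.02. It was 0.19 without *smxl4 smxl5* replicate 1 and 0.44 without replicate 2, the lowest and highest values over the libraries left out. With all libraries it was 0.40 for the 16 enzyme and transport genes and -0.12 for the 14 regulators. No mutant library lay within the wild-type range, or the reverse, for 11 members that were higher and 5 that were lower. Over all genes tested the shares separated in this way were 23.3% and 22%, together 45.3%. The other 6 members did not pass the filter on low counts: *MYB11* had 0 counts in every library, *UGT78D3* 1 count in all, *TT12* 2, *BAN* 11, *MYB111* 20 and *MYB12* 51. *BAN* and *TT12* belong to proanthocyanidin synthesis, which in Arabidopsis is known from the seed coat.

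In the RefSeq annotation of TAIR10.1 the 12 called members are *CHS* (AT5G13930, chr5:4488476-4490264, plus strand), *F3'H* (AT5G07990, chr5:2560328-2563137, plus strand), *FLS1* (AT5G08640, chr5:2803833-2805606, plus strand), *DFR* (AT5G42800, chr5:17164093-17166032, minus strand), *PAP1* (AT1G56650, chr1:21233555-21235292, minus strand), *MYB113* (AT1G66370, chr1:24753589-24754761, plus strand), *MYB114* (AT1G66380, chr1:24757298-24758953, plus strand), *TT8* (AT4G09820, chr4:6181881-6186523, plus strand), *HY5* (AT5G11260, chr5:3593335-3595073, minus strand), *MYBL2* (AT1G71030, chr1:26795052-26796532, minus strand), *LBD38* (AT3G49940, chr3:18514266-18516131, plus strand) and *LBD39* (AT4G37540, chr4:17639393-17640925, minus strand).

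**Figure D1:**
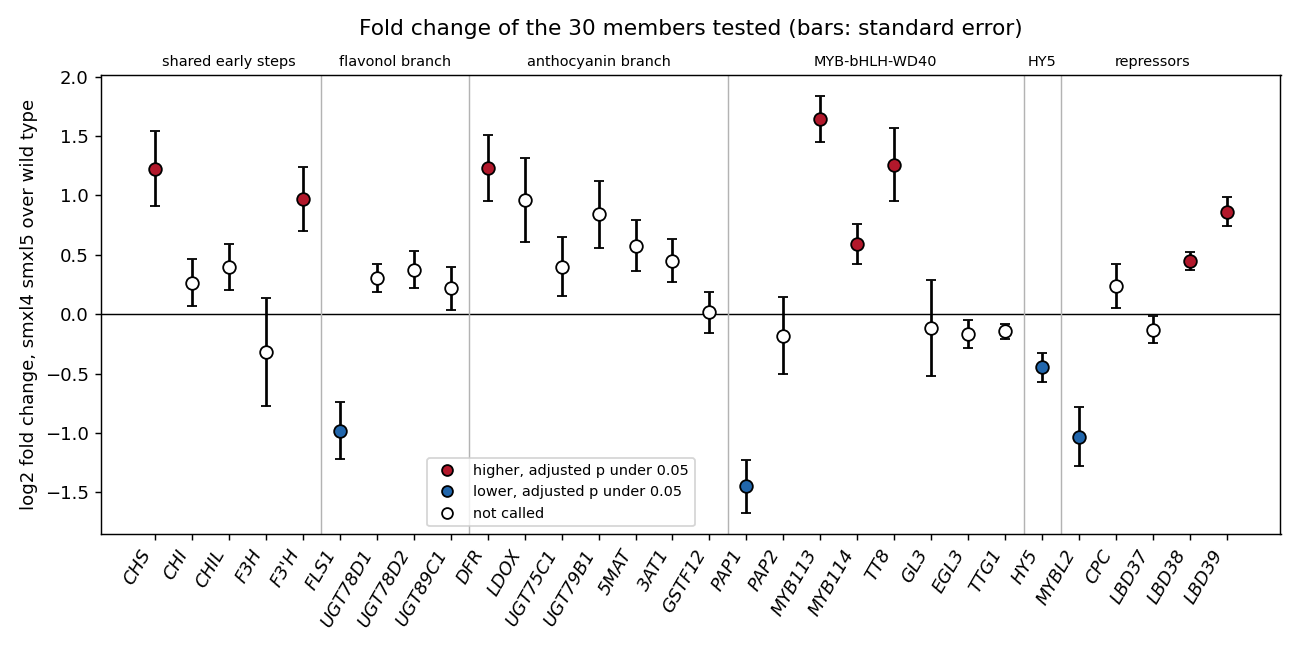
Log2 fold change (y axis, *smxl4 smxl5* over wild type) of the 30 members tested, ordered by role, with bars of 1 standard error. Filled points are the 12 called members: 8 lie above 0 and 4 below, with *MYB113* the highest at 1.65 and *PAP1* the lowest at -1.45.

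The upstream sequences of 6 genes are shown for reference. No link between these sequences and the fold changes was tested. The genes are the 4 anthocyanin MYB genes, of which *PAP1* fell, *MYB113* and *MYB114* rose and *PAP2* was not called, and *CHS* and *DFR*, the enzyme genes at the entry and at the branch point. Each is the 250 bases before the annotated start of the gene, read 5' to 3' on the gene's strand from TAIR10.1. Capitals mark a G-box (CACGTG), the core that bHLH and bZIP factors such as HY5 can bind, or an AC element, a core bound by R2R3-MYB factors, on either strand. The letters searched for the AC element were ACCTACC, then ACCAACC, and also ACCTAAC.
CHS, chr5:4488226-4488475, plus strand: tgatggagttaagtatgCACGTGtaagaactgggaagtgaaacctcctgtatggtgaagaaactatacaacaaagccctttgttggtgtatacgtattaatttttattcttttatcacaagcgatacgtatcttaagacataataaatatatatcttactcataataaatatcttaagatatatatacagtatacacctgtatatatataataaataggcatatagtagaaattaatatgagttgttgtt
DFR, chr5:17166033-17166282, minus strand: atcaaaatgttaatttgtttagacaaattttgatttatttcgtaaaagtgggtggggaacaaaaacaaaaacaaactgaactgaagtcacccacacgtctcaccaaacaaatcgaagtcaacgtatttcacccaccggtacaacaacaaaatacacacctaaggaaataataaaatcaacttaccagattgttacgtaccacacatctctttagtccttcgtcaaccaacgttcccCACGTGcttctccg
PAP1, chr1:21235293-21235542, minus strand: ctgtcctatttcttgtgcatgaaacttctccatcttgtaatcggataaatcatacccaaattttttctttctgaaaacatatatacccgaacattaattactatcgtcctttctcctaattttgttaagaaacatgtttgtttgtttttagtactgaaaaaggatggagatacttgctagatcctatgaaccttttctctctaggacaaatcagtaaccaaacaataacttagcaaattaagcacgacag
MYB113, chr1:24753339-24753588, plus strand: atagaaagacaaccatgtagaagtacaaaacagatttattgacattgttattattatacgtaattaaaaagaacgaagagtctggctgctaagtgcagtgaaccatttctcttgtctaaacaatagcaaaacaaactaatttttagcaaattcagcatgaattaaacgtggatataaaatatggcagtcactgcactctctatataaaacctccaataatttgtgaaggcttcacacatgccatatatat
MYB114, chr1:24757048-24757297, plus strand: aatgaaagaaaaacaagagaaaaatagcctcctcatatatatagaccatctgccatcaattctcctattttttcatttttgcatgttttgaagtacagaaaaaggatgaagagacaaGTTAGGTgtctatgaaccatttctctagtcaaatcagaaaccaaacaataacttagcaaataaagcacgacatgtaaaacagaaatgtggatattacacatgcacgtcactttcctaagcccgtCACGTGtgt
PAP2, chr1:24763691-24763940, plus strand: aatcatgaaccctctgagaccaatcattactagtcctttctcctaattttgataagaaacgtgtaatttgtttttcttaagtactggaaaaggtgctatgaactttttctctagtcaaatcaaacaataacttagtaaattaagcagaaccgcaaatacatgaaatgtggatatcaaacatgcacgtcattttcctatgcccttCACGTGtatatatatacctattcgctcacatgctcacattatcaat

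A G-box lay in the window of 9 of the 36 members, or 25.0%, and in 6.49% of the windows of 27443 protein-coding genes. An AC element lay in 7 of 36, or 19.4%, against 6.12%. These shares are descriptions of letters in a fixed window and were not tested. The G-box of *CHS* ran from base -233 to -228 relative to the gene's start and that of *DFR* from -14 to -9. The 3 MYB genes *MYB113*, *MYB114* and *PAP2* stand in a row on chromosome 1 within 11953 bases, with gaps of 2536 and 4987 bases between neighbours, and *PAP1* lies elsewhere on the same chromosome. Among these 4 genes the longest identical stretch between windows had 23 bases and joined *PAP1* and *MYB114* (aaccaaacaataacttagcaaat), while no stretch of more than 14 bases was shared by the *MYB113* window and another. By the longest alignment of each pair, no pair of their transcripts matched at 85% identity or more over at least 100 bases. Closer matches in shorter alignments of a pair were not looked for. *MYB113* matched another locus, AT1G56640, at 86% over 114 bases.

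The first committed enzymes rose in part. *CHS*, whose product makes the first flavonoid skeleton, was at 311, 134 and 197 CPM in *smxl4 smxl5* and at 96.5, 75.2 and 103 CPM in wild type. All 3 mutant libraries lay above the highest wild-type library, with replicate 1 at more than any other. The log2 fold change was 1.23 ± 0.32 (SE), or 2.34-fold, with an adjusted p of 0.0396. *F3'H*, which sets the hydroxylation of the B ring, was at 26.9, 12.4 and 18.0 CPM against 10.1, 8.94 and 10.4 CPM, again with no overlap (log2 0.97 ± 0.27, adjusted p = 0.0455). *CHI* and its non-catalytic relative *CHIL*, which assists chalcone synthase, had log2 fold changes of 0.27 ± 0.20 and 0.40 ± 0.19 and overlapped between groups, with *smxl4 smxl5* replicate 2 at 7.95 CPM of *CHI* against 7.89 to 10.8 CPM in wild type. The calls of *CHS* and *F3'H* were lost without a filter on low counts (adjusted p = 0.0732 and 0.0728). *CHS* was called without *smxl4 smxl5* replicate 1 or 2 but not without any other single library (adjusted p from 0.0133 to 0.132). *F3'H* was called without *smxl4 smxl5* replicate 2 but not without any other (0.00985 to 0.153).

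*F3H* stood apart from its pathway. The table gave it 3 to 17 counts a library, or 0.139 to 0.387 CPM, and the groups overlapped (log2 -0.32 ± 0.45, adjusted p = 0.630). Per kilobase of exon its mean level in wild type was 0.201 CPM, where *CHI*, which acts just before it, was at 8.37 and *DFR*, which acts just after it, at 31.0 CPM per kilobase. In the RefSeq annotation 93.8% of the exon bases of *F3H* are also exon of AT3G51238, a long non-coding RNA locus on the opposite strand that had 0 counts in every library. The kit was directional, but how strand was treated in counting is not stated. How reads of the pair were assigned is thus not known, and the part of the overlap in the low value was not tested. *UGT89C1* has 99.6% of its exon bases under an opposite-strand locus, AT1G06002, which had 0 or 1 counts a library where *UGT89C1* had 345 to 1019.

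**Figure D2:**
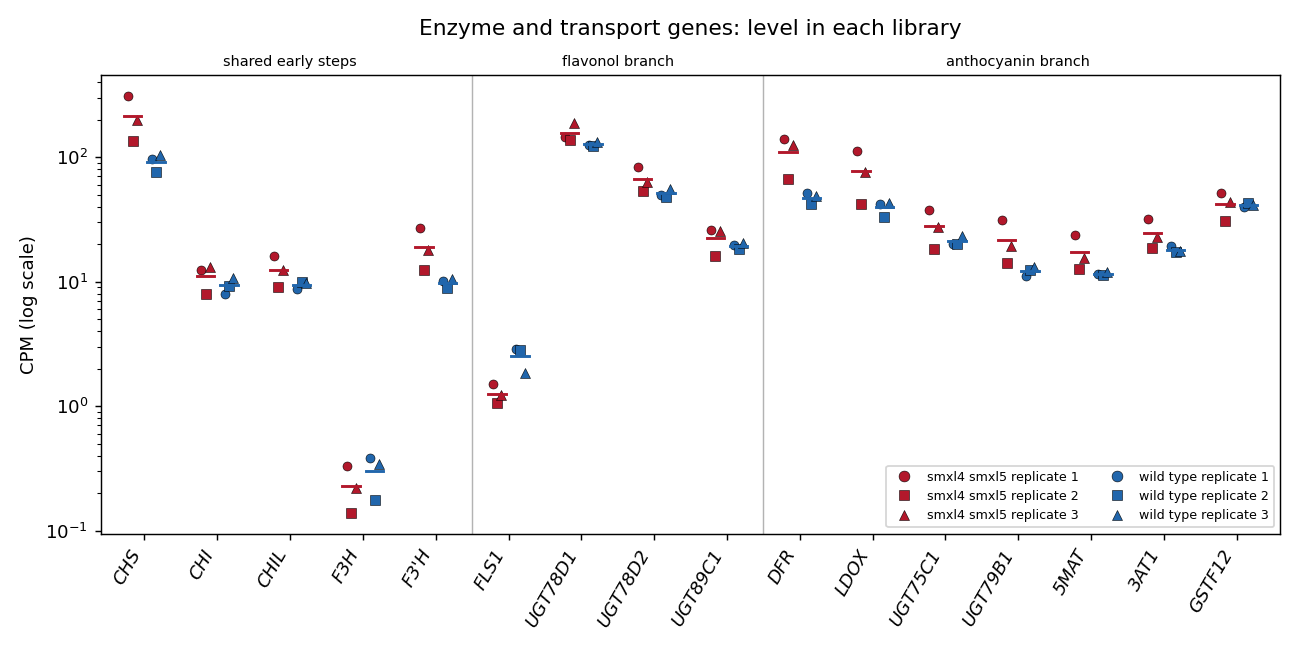
CPM on a log axis of the 16 enzyme and transport genes tested, by library; red points are *smxl4 smxl5*, blue points wild type, marker shapes are replicates and short lines are group means. *CHS*, *F3'H* and *DFR* lie wholly above wild type and *FLS1* wholly below, and the red square, replicate 2, is the lowest red point for all 16 genes.

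In the flavonol branch the branch-point gene moved against the early genes. *FLS1*, which turns dihydroflavonols into flavonols, was at 1.50, 1.07 and 1.22 CPM in *smxl4 smxl5* and at 2.89, 2.84 and 1.84 CPM in wild type. Each mutant library lay below each wild-type library, and the log2 fold change was -0.98 ± 0.24 (adjusted p = 0.0247). Leaving out *smxl4 smxl5* replicate 2 or wild type replicate 1 or 2 ended the call (adjusted p = 0.0602, 0.0838 and 0.0947), the range over the 6 libraries left out being 0.0132 to 0.0947. The 3 glycosyltransferase genes of this branch that were tested had more reads than *FLS1* and did not pass. *UGT78D1*, a flavonol 3-O-rhamnosyltransferase gene, was at 146, 138 and 187 CPM against 126, 122 and 132 CPM (log2 0.31 ± 0.12, adjusted p = 0.0956), so the groups were separate but the change was small. *UGT78D2*, whose enzyme adds glucose to flavonols and anthocyanidins, was at 82.6, 53.0 and 63.5 CPM against 49.9, 48.0 and 55.8 CPM (log2 0.38 ± 0.16, adjusted p = 0.122). *UGT89C1*, a flavonol 7-O-rhamnosyltransferase gene, had a log2 fold change of 0.22 ± 0.18.

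In the anthocyanin branch all 7 genes tested had positive fold changes, though that of *GSTF12* was near 0 and turned negative without a filter on low counts, and 1 passed. *DFR*, the first enzyme after the branch point, was at 139, 66.9 and 125 CPM in *smxl4 smxl5* and at 51.5, 41.6 and 48.2 CPM in wild type. The groups did not overlap, and it rose 2.35-fold (log2 1.23 ± 0.28, adjusted p = 0.0257). *LDOX*, the next enzyme, was at 112, 42.0 and 76.1 CPM against 42.3, 33.1 and 43.0 CPM. Here *smxl4 smxl5* replicate 2 lay within the wild-type range while the other mutant libraries lay above it, and the log2 fold change of 0.96 ± 0.35 did not pass (adjusted p = 0.102). *LDOX* shares 96% identity over 321 bases with its neighbour AT4G22870, and reads from that stretch may have been split. Among the decorating enzymes, *UGT79B1*, which adds xylose to the anthocyanin, and *5MAT*, which adds malonate, had log2 fold changes of 0.84 ± 0.28 and 0.58 ± 0.22 with separate groups (adjusted p = 0.0764 and 0.0936). *3AT1*, a coumaroyltransferase gene, was at 0.45 ± 0.18 and *UGT75C1*, the 5-O-glucosyltransferase gene, at 0.40 ± 0.25, with overlapping groups. *3AT1* is 96.6% identical over 1244 bases to *3AT2*, which had a log2 fold change of 0.38 ± 0.18, so the pair is uncertain. *GSTF12*, whose protein carries anthocyanins towards the vacuole, was at 51.05, 30.5 and 43.5 CPM against 39.7, 43.0 and 41.3 CPM, and its log2 fold change was 0.02 ± 0.17.

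The mutant libraries were not alike in these genes. For all 16 enzyme and transport genes tested, replicate 2 was the lowest of the 3 *smxl4 smxl5* libraries, and replicate 1 was the highest for 14. Replicates 1 and 3 each lay above every wild-type library for 14 of the 16 genes, and replicate 2 for 6. These ranks were not counted over all genes tested, so whether they are particular to this pathway was not tested. Without replicate 2, 15 of 31 members tested rose, where 7.34% of all genes were called higher, and *LDOX* had a log2 fold change of 1.24 (adjusted p = 0.0127, the range over the libraries left out being 0.0127 to 0.272). Without replicate 1, 4 members rose (background 4.92%), and without replicate 3, 3 rose (11.9%). Leaving out wild type replicate 1, 2 or 3 left 3, 4 and 3 members higher, against backgrounds of 4.28%, 2.91% and 10.3%. The members that fell numbered 2, 2 and 4 without *smxl4 smxl5* replicates 1, 2 and 3, where 7.28%, 10.5% and 15.3% of all genes were called lower. They numbered 1, 1 and 3 without wild type replicates 1, 2 and 3 (7.51%, 6.37% and 13.3%). With all libraries, 8 rose and 4 fell under RLE scaling (background 10.5% and 13.9%), 11 and 4 with DESeq2 (11% and 13.6%), 6 and 4 without a filter on low counts (7.4% and 10.8%) and 7 and 3 with a replicate block (6.68% and 9.86%). Replicate 2 had the fewest counts of any library, and the part of depth in its low values was not tested. The call of *DFR* was lost without any single library other than *smxl4 smxl5* replicate 2, with log2 fold changes from 1.03 to 1.48 and adjusted p from 0.00237 to 0.0989.

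The ratio of the branch-point transcripts, *DFR* to *FLS1*, set the groups of libraries apart. Per kilobase of exon, *DFR* was 99.0, 66.6 and 110 times as abundant as *FLS1* in *smxl4 smxl5* and 19.0, 15.6 and 28.0 times in wild type. The lowest mutant library was at more than the highest wild-type library, and the group means were 91.7 ± 22.3 and 20.8 ± 6.39 (SD, n = 3). This ratio was chosen after the values of both genes were seen and was not tested. It covers *FLS1* only, which had 23 to 128 counts a library. The paralogue *FLS2*, not a member, was at a mean of 98.9 CPM per kilobase in *smxl4 smxl5* and 56.5 in wild type. Enzyme activity was not measured, so these RNA levels do not show how much flavonol synthase either gene supplies. In order of mean level per kilobase, *UGT78D1* and *CHS* were the most abundant members in wild type, at 66.5 and 53.8 CPM per kilobase. In *smxl4 smxl5* the order of these genes was exchanged, with *CHS* at 126 and *UGT78D1* at 82.2 CPM per kilobase on average, although their single libraries overlapped there, and *DFR* moved from rank 5 to rank 3.

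The MYB genes that activate the late steps moved in opposite directions. *PAP1*, also called *MYB75*, a main activator of anthocyanin synthesis in leaves and seedlings, was at 3.56, 4.88 and 6.18 CPM in *smxl4 smxl5* and at 12.5, 16.2 and 11.3 CPM in wild type. The groups lay well apart, and it fell by 1.45 on the log2 scale (SE 0.22, adjusted p = 0.00653). *MYB113*, its relative, was at 16.7, 14.2 and 23.9 CPM against 5.84, 5.41 and 6.32 CPM and rose 3.13-fold (log2 1.65 ± 0.19, adjusted p = 0.00333). Both calls held in all 10 other fits, with adjusted p from 0.00337 to 0.0270 for *PAP1* and from 0.00112 to 0.0212 for *MYB113* over the libraries left out. *MYB114*, whose protein is truncated in the reference accession, was at 6.41, 6.37 and 7.48 CPM against 4.35, 5.50 and 3.63 CPM (log2 0.59 ± 0.17, adjusted p = 0.0400). Its call held without wild type replicate 2 and was lost without any other single library, with adjusted p from 0.0356 to 0.116. *PAP2*, at 0.359, 0.651 and 0.471 CPM against 0.506, 0.687 and 0.444 CPM, was the least abundant of the 4 and its groups overlapped (log2 -0.18 ± 0.32).

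Summed per kilobase, the 4 MYB genes reached 26.9, 25.7 and 38.0 CPM per kilobase in *smxl4 smxl5* and 21.8, 25.8 and 20.5 in wild type, so the groups overlapped. *PAP1* made up 11.9%, 17.2% and 14.7% of that sum in *smxl4 smxl5* and 51.9%, 56.5% and 49.7% in wild type. *MYB113* made up 65.9%, 58.6% and 66.8% against 28.4%, 22.2% and 32.7%. The most abundant of the 4 transcripts was thus *PAP1* in every wild-type library and *MYB113* in every mutant library. The shares were worked out after the values of the genes were seen and were not tested.

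**Figure D3:**
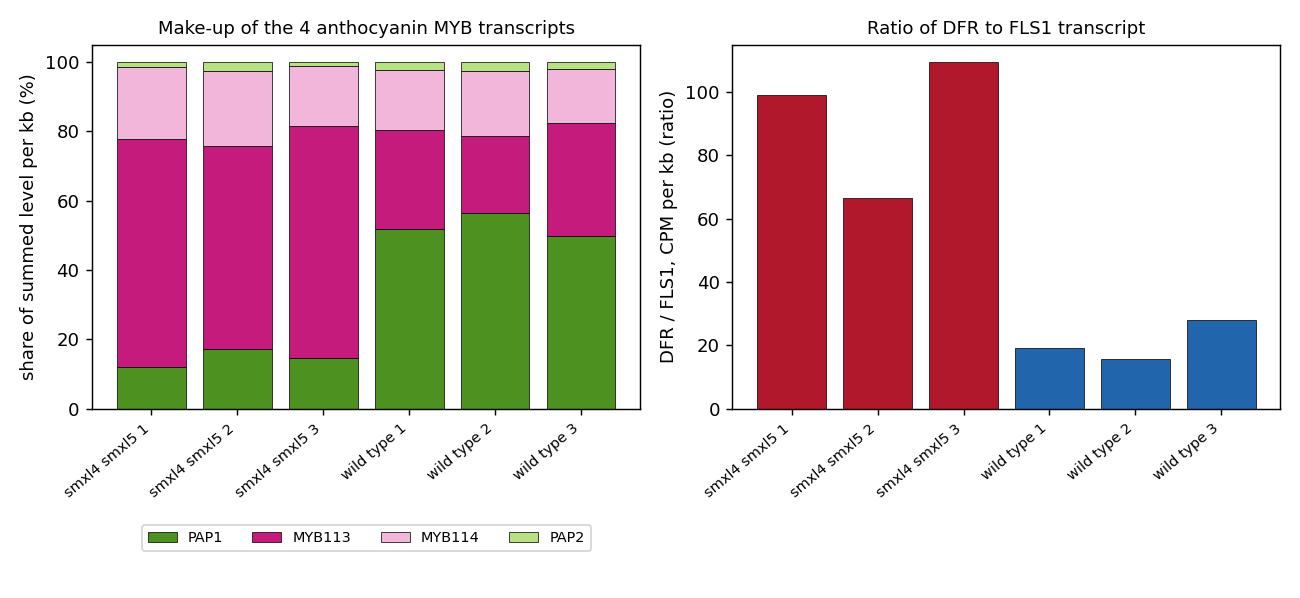
Left, share of each gene (%) in the summed CPM per kilobase of the 4 anthocyanin MYB genes, by library; *PAP1* makes up 49.7% to 56.5% in wild type and 11.9% to 17.2% in *smxl4 smxl5*. Right, ratio of *DFR* to *FLS1* in CPM per kilobase by library, from 66.6 to 110 in *smxl4 smxl5* and from 15.6 to 28.0 in wild type; each bar is 1 library.

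Of the partners of these MYB proteins, 1 changed. *TT8*, the bHLH gene that the complex itself activates, was at 10.8, 4.37 and 8.45 CPM in *smxl4 smxl5* and at 3.57, 3.37 and 3.05 CPM in wild type. Its values followed the order of the enzymes, with replicate 2 lowest but still above wild type (log2 1.26 ± 0.31, adjusted p = 0.0279). Like *DFR*, it lost its call without any single library other than *smxl4 smxl5* replicate 2 (adjusted p from 0.00423 to 0.0994). *TTG1*, the WD40 protein of the complex, was at 46.2, 46.9 and 46.6 CPM against 52.4, 52.3 and 49.4 CPM. Its groups were separate by a small margin (log2 -0.14 ± 0.06, adjusted p = 0.134). The other bHLH genes *EGL3* and *GL3*, which also act in trichome formation, had log2 fold changes of -0.17 ± 0.12 and -0.11 ± 0.41.

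Of the early regulators only *HY5* passed the filter on low counts. This bZIP gene, an activator of light responses, was at 4.07, 4.18 and 4.66 CPM in *smxl4 smxl5* and at 5.45, 5.81 and 6.34 CPM in wild type. The groups were separate and the change was small (log2 -0.45 ± 0.12, adjusted p = 0.0330). The call held without *smxl4 smxl5* replicate 3 and was lost without any other single library, with adjusted p from 0.0317 to 0.107. *MYB12*, the most abundant of the flavonol MYB genes, had 8, 4 and 12 counts against 4, 8 and 15, or 0.240, 0.186 and 0.333 CPM against 0.119, 0.177 and 0.303 CPM.

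The repressors moved both ways. *MYBL2*, a single-repeat MYB gene whose protein inhibits the complex, was at 3.80, 5.72 and 5.13 CPM in *smxl4 smxl5* and at 9.92, 12.9 and 6.98 CPM in wild type, and fell by 1.03 on the log2 scale (SE 0.25, adjusted p = 0.0268). The groups did not overlap, although wild type replicate 3 came near them. Its call was lost without *smxl4 smxl5* replicate 1 or wild type replicate 1 or 2, with adjusted p from 0.0120 to 0.0818 over the libraries left out. The LOB-domain genes *LBD37*, *LBD38* and *LBD39* are known to be induced by nitrate and to repress anthocyanin genes. *LBD39* was at 24.7, 34.0 and 30.4 CPM against 17.3, 15.8 and 15.8 CPM (log2 0.86 ± 0.12, adjusted p = 0.00446). *LBD38* was at 59.3, 62.8 and 55.7 CPM against 45.8, 41.1 and 43.6 CPM (log2 0.45 ± 0.08, adjusted p = 0.00785). Both rose with no overlap and kept their calls in all 10 other fits, with adjusted p over the libraries left out reaching 0.0233 for *LBD39* and 0.0429 for *LBD38*. In these 2 genes *smxl4 smxl5* replicate 2 was the highest library, unlike in the enzymes. *LBD37* was at 32.5, 37.4 and 36.9 CPM against 37.7, 45.3 and 33.7 CPM and overlapped (log2 -0.13 ± 0.12), as did the single-repeat MYB gene *CPC* (0.24 ± 0.19).

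**Figure D4:**
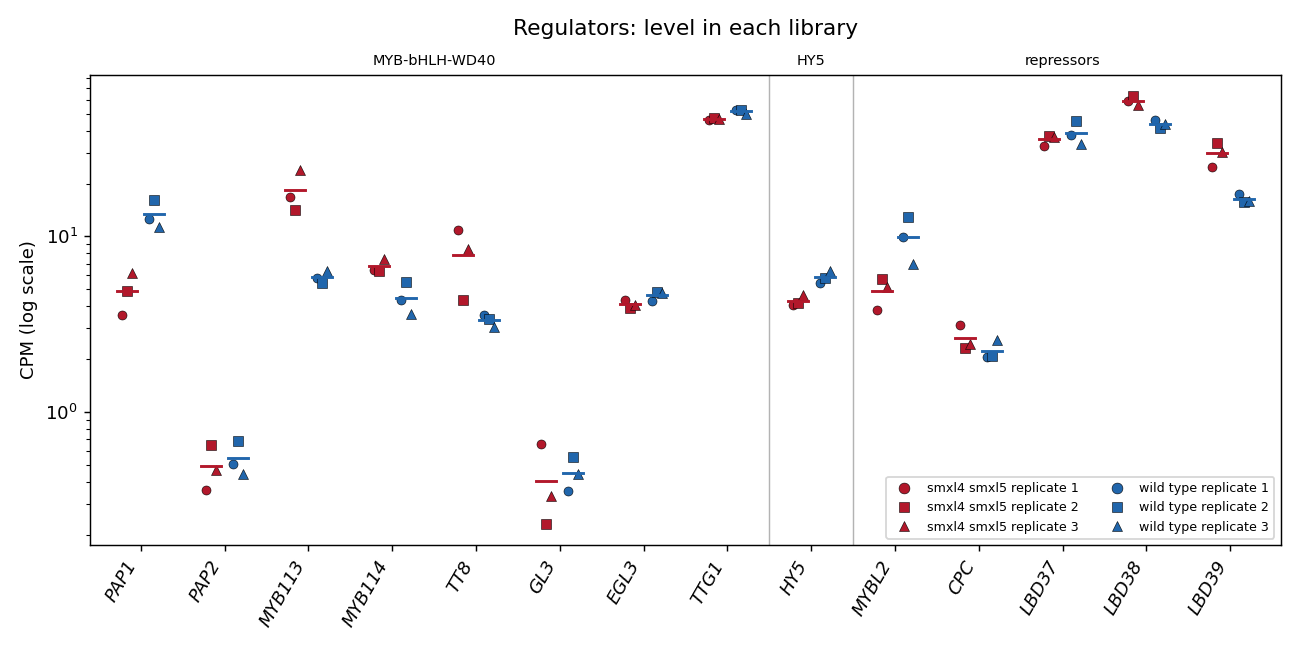
CPM on a log axis of the 14 regulators tested, by library, with colours, marker shapes and mean lines as for the enzymes. *PAP1*, *MYBL2* and *HY5* lie wholly below wild type, as does *TTG1* by a small margin. *MYB113*, *MYB114*, *TT8*, *LBD38* and *LBD39* lie wholly above it, while *LBD37* and *EGL3* differ little.

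Genes around the pathway were followed in 3 further lists, chosen, like the members, with earlier results of these data known. Of 9 genes of phenylpropanoid entry, which feeds lignin as well as flavonoids, 5 fell and 1 rose, with a median log2 fold change of -0.35, where 13.7% of all genes tested were called lower and 11.2% higher. The number lower was 3 without *smxl4 smxl5* replicate 2 or wild type replicate 1 or 2, and with the replicate block. *PAL4* and *PAL1*, phenylalanine ammonia-lyase genes, changed by -0.96 ± 0.17 and -0.45 ± 0.08, and the coumarate ligase gene *4CL1* by -0.68 ± 0.11 (adjusted p = 0.00894, 0.0102 and 0.00598). *PAL3*, a minor member of the same family, went the other way, from 10.9, 14.2 and 15.2 CPM in wild type to 44.4, 45.0 and 38.3 CPM (log2 1.66 ± 0.13, adjusted p = 0.00112). Among 14 other genes of flavonoid modification 11 were tested, of which 2 rose and 3 fell, against the same shares of all genes. Without *smxl4 smxl5* replicate 1 or wild type replicate 1 or 2, 1 rose and 2 fell. The risers were *FLS2*, a paralogue of *FLS1*, at 0.81 ± 0.14, and the anthocyanin glycosyltransferase gene *UGT79B2* at 0.72 ± 0.20. *SCPL10*, which encodes an anthocyanin sinapoyltransferase, fell from 13.0, 14.1 and 11.4 CPM in wild type to 5.33, 4.42 and 5.49 CPM (log2 -1.33 ± 0.12, adjusted p = 0.00172), and the methyltransferase gene *OMT1* changed by -0.66 ± 0.10.

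Among 21 further regulators 17 were tested, of which 5 fell and 0 rose in edgeR's test, with a median of -0.37, where 13.7% of all genes tested were called lower. At an unadjusted p under 0.05 in edgeR's test, 1 was higher and 10 were lower, and DESeq2 called 7 lower and 0 higher. The number lower was 1 without *smxl4 smxl5* replicate 1, 2 without *smxl4 smxl5* replicate 2 or wild type replicate 1 or 2, and 3 with the replicate block. *SPL9*, whose protein weakens the MYB-bHLH-WD40 complex, was at 3.56, 4.28 and 4.07 CPM in *smxl4 smxl5* and at 8.04, 11.3 and 7.51 CPM in wild type (log2 -1.18 ± 0.18, adjusted p = 0.00575). The groups lay well apart. *HYH*, the close relative of *HY5*, changed by -1.12 ± 0.29, the bHLH gene *MYC1* by -0.69 ± 0.19 and the WRKY gene *TTG2* by -0.54 ± 0.15 (adjusted p = 0.0276, 0.0350 and 0.0356). The gene of an F-box protein that marks chalcone synthase for breakdown (AT1G23390), singled out after its values were seen, was at 91.9, 120 and 130 CPM against 155, 182 and 155 CPM (log2 -0.53 ± 0.14, adjusted p = 0.0292). *COP1*, a repressor of light responses, had separate groups that differed little (log2 0.11 ± 0.07, adjusted p = 0.243).

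Markers of the tissues in a stem moved with the genotype as well, in lists also chosen with earlier results of these data known. Of the marker genes tested, 4 of 4 phloem, 4 of 4 xylem, 4 of 6 photosynthetic and 2 of 7 epidermis genes fell, where 13.7% of all genes tested were called lower. The summed level of the phloem markers was 200 to 216 CPM in *smxl4 smxl5* and 373 to 414 CPM in wild type, that of the xylem markers 1154 to 1440 CPM against 1853 to 2349 CPM, that of the photosynthetic markers 6905 to 8807 CPM against 11088 to 12179 CPM and that of the epidermis markers 343 to 398 CPM against 435 to 680 CPM. The 2 epidermis genes that fell were *CER1*, at a mean of 24.7 CPM in *smxl4 smxl5* against 92.0 CPM in wild type, and *MAH1*, at 28.6 against 130 CPM. *CER6* and *KCS10*, of the same list, had log2 fold changes of -0.17 and -0.25 with overlapping groups and were not called. The epidermal regulator genes *ATML1* and *PDF2*, which define that layer, had log2 fold changes of -0.30 and 0.02 and were not called. *PDF1*, of the same list, was at 0.419, 1.67 and 16.4 CPM against 7.33, 8.98 and 11.7 CPM, so *smxl4 smxl5* replicates 1 and 2 lay below every wild-type library and replicate 3 above. The trichome gene *GL2* fell (log2 -0.70, adjusted p = 0.0427) and *GL1* had 0 to 5 counts a library. Of the flower and seed markers *PI* rose, from 0.0404 to 0.328 CPM in wild type to 0.693 to 2.01 CPM, while *AG* and *OLE1* had 0 to 5 counts a library. The part of these tissue markers in the flavonoid gene values was not tested.

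The authors' deposited table, from their own comparison, gave an adjusted p to 31 members. Its fold changes, turned here to *smxl4 smxl5* over wild type, were called higher for 11 members and lower for 4, against 11.4% and 14.2% of all genes in that table. They included all 12 members called with edgeR, in the same direction. The additional risers in the authors' deposited table were *LDOX* (log2 0.79, adjusted p = 0.00438), *UGT79B1* (0.71, 0.00663) and *5MAT* (0.50, 0.0379). The authors' deposited table gave -1.28 for *PAP1* and 1.47 for *MYB113*, where DESeq2 run here on the counts gave -1.46 and 1.64. The cause of this difference in size was not tested.

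**Figure D5:**
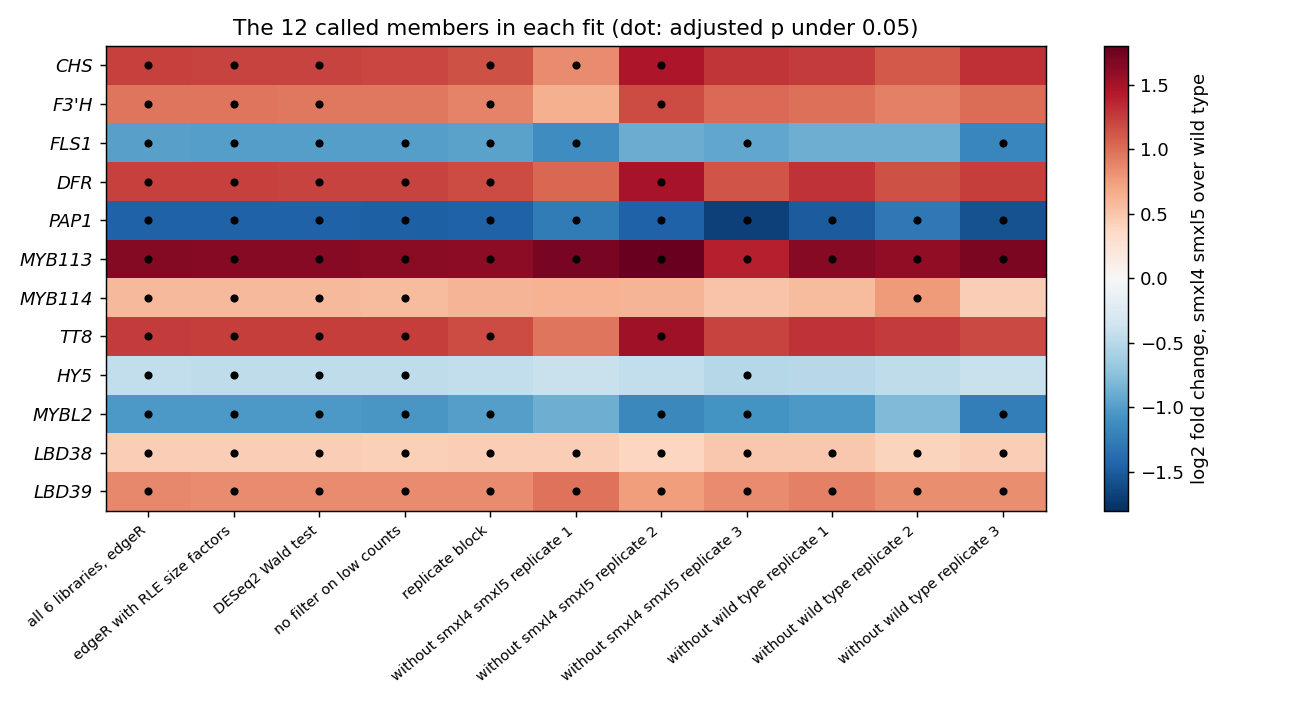
Log2 fold change (colour) of the 12 called members in the edgeR fit with all 6 libraries and in the 10 other fits; a dot marks an adjusted p under 0.05. *PAP1*, *MYB113*, *LBD38* and *LBD39* have a dot in every column, and each member stays on its side of 0 in all columns.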

How the data were processed

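RNA was sequenced in 3 *smxl4 smxl5* and 3 wild-type libraries, each of 3 pooled stem fragments; the kit was directional with poly(A) selection, per the labels' protocols. Counts per gene were deposited by the authors without normalization. TAIR10 is the build in the submitters' processing notes, which also list DESeq2, TopHat2 2.0.14 and FastQC 0.11.7. What program counted the reads, on which strand and with which annotation, is not given in the sources used here. The authors also deposited a comparison table that holds, per the file headers, p-values, a log2 fold change and its error, a test score, which was not used, and a mean normalized signal. Its direction is not stated; over the genes tested its fold change correlated with the one computed here at -0.944, so its sign was turned.

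Groups follow the genotype in the labels and replicate numbers the titles. The descriptions number every wild-type sample as replicate 1, while the protocol states 3 biological replicates. Counts were tested with edgeR 4.0.16 in R 4.3.3: filterByExpr (minimum count 10, total 15), TMM scaling, robust quasi-likelihood F test of genotype, two-sided, with Benjamini-Hochberg adjustment over all 20296 genes tested and a threshold of 0.05. The procedure was also run on simulated counts, with a far smaller share of changed genes than was called here. That run does not test the calls of the members. Standard errors were worked out as the log2 fold change divided by the root of F. Alternatives were RLE scaling, DESeq2 1.42.0, no filter, a replicate block and leaving out each library. Exon lengths, overlaps and upstream sequences come from RefSeq's TAIR10.1, where all 36 members were found. Transcript similarity was searched with BLAST 2.17.0, and the longest alignment of each pair of loci was kept. Values of each library are given for called members, the 2 most abundant of each role group and the 4 anthocyanin MYB genes. From other pathway lists up to 4 called genes each are given. The library values of *GSTF12*, and AT1G23390 and *COP1* of the further regulators, are given outside this rule. Members and lists were chosen with earlier results of these data known.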

Additional observations from a re-analysis of the deposited data

How the results depend on the processing

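Of 300 values of single members under other settings, 240 kept their direction and side of the threshold, 39 lost a call, 11 gained one and 10 changed sign. The sign changes were in *GSTF12* (-0.00040 with no filter on low counts, -0.015 with the replicate block, -0.16 to 0.18 over the libraries left out), *PAP2* (-0.40 to 0.028) and *GL3* (-0.64 to 0.10), none of which was called. Over the libraries left out, all genes called ran from 1902 to 5558, members higher from 3 to 15, members lower from 1 to 4, other flavonoid genes called from 3 to 7 and further regulators called from 1 to 5. The cause was not tested. Over all genes tested, deviations of same-numbered samples correlated at 0.04, 0.07 and -0.03. There 1 of the 3 mutant libraries correlated best with its own number, so the numbers showed no clear pairing. For the 16 enzyme and transport genes tested, wild type replicates 1, 2 and 3 were lowest of their group for 5, 10 and 1 genes. In the mutant group *smxl4 smxl5* replicate 2 was lowest for all 16. Whether these genes share an effect of replicate number was not tested. With the replicate block 3356 genes were called, and 3 of the further regulators. *MYB114* and *HY5* lost their calls there (adjusted p = 0.0818 and 0.0580). DESeq2 called 11 members higher and 4 lower, adding *LDOX*, *UGT79B1* and *5MAT*. The median fold change of all genes moved by under 0.1 (log2) with the scaling. Of the 6 members that the filter left out, with 0 to 51 counts in all, 5 were tested without it and 0 were called. The lowest adjusted p in any fit that kept them was 0.403. What size of change could be detected at such counts was not tested.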
